A study of Mus musculus with 5 samples.

Results

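The promoters of 9 genes for subunits of Polycomb repressive complex 1 (PRC1) outside the Pcgf6 complex (Pcgf1, Pcgf2, Pcgf3, Pcgf5, Bmi1, Cbx2, Cbx7, Cbx8 and Phc1) were examined in Pcgf6 ChIP-seq data from CCE cells, an established line of mouse embryonic stem cells (ESCs). The genes were taken by name, 9 of the 22359 protein-coding genes of the mm9 (NCBIM37) annotation. Each was described by the sequencing depth within 2 kb of its main transcription start site (TSS). The main TSS is the start with the largest number of the gene's protein-coding transcripts or, on a tie, the most upstream one. It can hold few of them, with 1 of 4 at Pcgf2, 1 of 6 at Bmi1 and Cbx7 and 2 of 13 at Phc1. Neither antibody enriched any of the 9 promoters over input past the threshold, and the 9 fragment ratios with the Santa Cruz antibody lay between 0.607 and 0.982, each with an interval that includes 1. At a peak cutoff of 1e-05, the nearest peak to any of the main starts lay behind the end of Bmi1. It was not called with a local rate from 1 kb of the input, and at a cutoff of 1e-04 a peak 5833 bp downstream of Cbx8 (Abcam) was nearer.

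The series holds 5 libraries from unmanipulated CCE ESCs grown in serum and LIF and cross-linked with disuccinimidyl glutarate and paraformaldehyde. There were 2 replicates of ChIP with a Santa Cruz antibody to Pcgf6, 2 replicates with an Abcam antibody to Pcgf6, and 1 input library, DNA sequenced without pull-down. All libraries came from 1 cell line, and no library from cells without Pcgf6 was analysed here. Sequenced DNA carries no expression values, so the ESC label could not be checked against marker genes.

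PRC1 complexes place ubiquitin on histone H2A through Ring1 or Rnf2, and each complex holds 1 of a set of Pcgf proteins that decides its other partners. Pcgf2 and Bmi1 sit in canonical PRC1. It also holds a Cbx protein that reads trimethylated lysine on histone H3 and a Phc protein that joins complexes to each other. Pcgf1, Pcgf3, Pcgf5 and Pcgf6 are usually placed in variant complexes without these Cbx and Phc subunits. The paper that reported these data, however, cites earlier work with Pcgf6 in Cbx7-bound PRC1 of ESCs. It also lists Phc2 among the proteins found with tagged Pcgf6. The comparison addresses whether Pcgf6, a subunit of one variant complex, was found at the promoters of genes for subunits of the others.

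Depth sums were 6840305592 in the input file, 686875692 and 689839264 in the Santa Cruz files, and 828324792 and 854947415 in the Abcam files, where 1 fragment adds 300. Replicates of an antibody held largely the same fragments. Of the replicate 1 fragments 87.9% (Santa Cruz) and 88.1% (Abcam) were found in replicate 2 at 1 of 2 fixed shifts, against 0.450% between the antibodies. In the 9 promoter windows, 58 of 63 Santa Cruz fragments (92.1%) and 85 of 93 Abcam fragments (91.4%) of replicate 1 were found in replicate 2. The replicates of an antibody were therefore counted as 1 sample, with a shared fragment counted once, which gave 2563094 Santa Cruz, 3160177 Abcam and 22298811 input fragments. With 1 library per antibody there is no SD between replicates. Tests compare the fragments of these libraries, and the 95% intervals (exact Clopper-Pearson) cover counting error only.

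By depth, the members of the canonical complex that carry the Pcgf position came out below or near input. Values are the depth within 2 kb of the TSS in parts per 1000000 (ppm) of the depth sum of the file. Pcgf2 (also called Mel18; chr11:97559811-97563811, minus strand) had 5.43 ppm in the input, 3.64 and 4.06 in the Santa Cruz files, and 4.55 and 4.06 in the Abcam files, so all 4 ChIP files lay below the input. Bmi1 (chr2:18596645-18600645, plus strand), the other canonical Pcgf subunit, had 2.74 ppm in the input, 2.62 and 2.61 with Santa Cruz, and 2.90 and 3.16 with Abcam. At Bmi1 the Abcam files were thus 1.06 and 1.15 times the input and the Santa Cruz files 0.955 and 0.951 times.

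The members of variant complexes lay below input in each ChIP file. Pcgf1 (chr6:83026380-83030380, plus strand), which works with Kdm2b and Bcor, had 5.58 ppm in the input, 4.37 and 4.35 with Santa Cruz, and 4.35 and 4.96 with Abcam. Pcgf3 (chr5:108888251-108892251, plus strand) had 3.85 ppm in the input, 2.62 and 3.06 with Santa Cruz, and 2.30 and 2.96 with Abcam. For Pcgf5 (chr19:36451557-36455557, plus strand), a close relative of Pcgf3, the input had 2.86 ppm, the Santa Cruz files 1.75 and 2.61, and the Abcam files 1.86 and 2.14.

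The depth values of the Cbx genes lay on both sides of the input, and the genes were not tested against each other. Cbx2 (chr11:118882276-118886276, plus strand), a chromodomain subunit that also compacts chromatin, had 5.01 ppm in the input, 2.18 and 3.69 with Santa Cruz, and 3.98 and 3.16 with Abcam. Cbx7 (chr15:79799549-79803549, minus strand), the main Cbx protein of canonical PRC1 in ESCs, had 3.77 ppm in the input, 2.43 and 1.55 with Santa Cruz, and 2.55 and 2.82 with Abcam. Its 0.412 times the input in Santa Cruz replicate 2 was the lowest of all 36 values. Cbx8 (chr11:118900283-118904283, minus strand), by contrast, had 5.32 ppm in the input, 4.80 and 4.78 with Santa Cruz, and 6.66 and 5.58 with Abcam, which put both Abcam files above the input.

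Phc1 (chr6:122285033-122289033, minus strand), a polyhomeotic subunit whose SAM domain links complexes, gave the highest Abcam ratios to input. Its window had 3.38 ppm in the input, 3.06 and 3.48 with Santa Cruz, and 5.25 and 5.55 with Abcam. Relative to input these were 0.903 and 1.03 with Santa Cruz and 1.55 and 1.64 with Abcam. In all, 7 of the 36 file-by-gene values exceeded the input, all of them at Bmi1, Cbx8 or Phc1. By file these were 0 and 1 of 9 genes with Santa Cruz, where 40.4% and 40.8% of all promoters exceeded the input, and 3 and 3 of 9 with Abcam (44.1% and 44.2%), and the files of an antibody share most of their fragments. The median over the 9 genes was 0.681 and 0.795 in the Santa Cruz files and 0.795 and 0.768 in the Abcam files, beside medians over all promoters of 0.886, 0.893, 0.935 and 0.934.

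**Figure D1:**
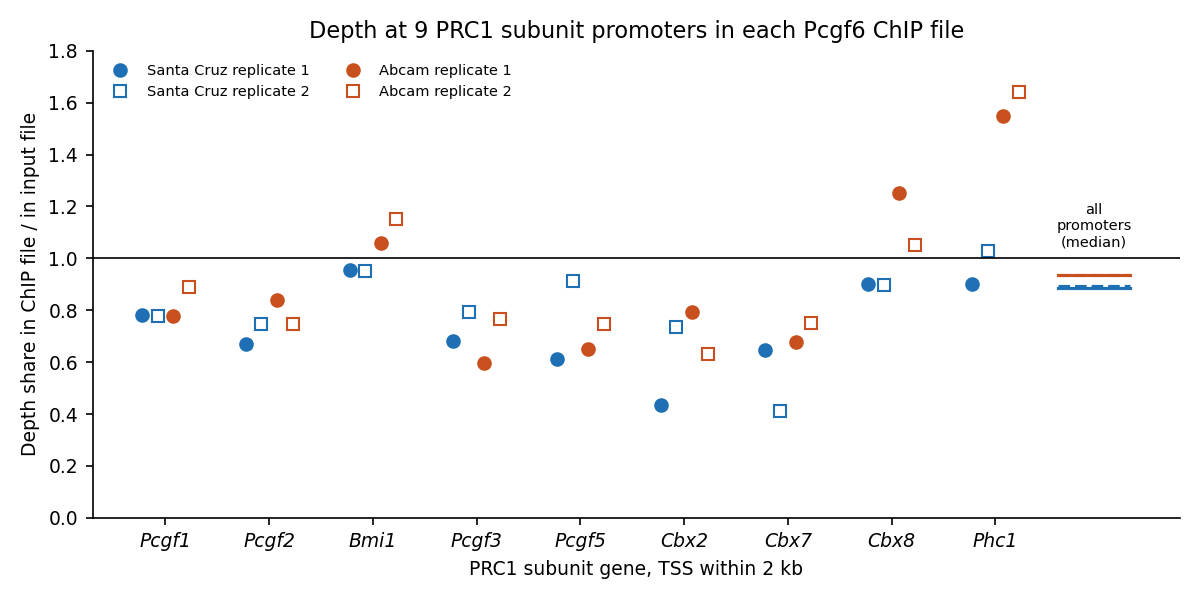
Depth within 2 kb of the TSS as a share of the depth sum of each ChIP file, divided by the same share in the input file (y axis), for the 9 PRC1 subunit genes (x axis). Each point is 1 file, and the short lines at the right are the medians over all promoters. The values run from 0.412 (Cbx7) to 1.64 (Phc1), and points above 1 are at Bmi1, Cbx8 and Phc1.

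The same windows were then tested on fragments. Pcgf2 held 9 Santa Cruz, 13 Abcam and 121 input fragments, ratios of 0.647 (95% interval 0.289 to 1.27) and 0.758 (0.392 to 1.35) after scaling by the library totals. Bmi1 held 7, 9 and 62 fragments, ratios of 0.982 (0.379 to 2.15) and 1.02 (0.447 to 2.07). Pcgf1 held 11, 14 and 125, ratios of 0.766 (0.373 to 1.42) and 0.790 (0.420 to 1.38). All these intervals include 1.

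For Pcgf3 the counts were 7, 9 and 84, with ratios of 0.725 (0.283 to 1.56) and 0.756 (0.334 to 1.50). Pcgf5 held 6, 6 and 63 fragments, which gave 0.829 (0.293 to 1.91) and 0.672 (0.238 to 1.55). Both antibodies thus lay below input at these 2 paralogs, with intervals that include it.

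Cbx2 held 8 Santa Cruz, 11 Abcam and 109 input fragments, ratios of 0.639 (0.269 to 1.30) and 0.712 (0.345 to 1.33). Cbx7 held 6, 9 and 86, ratios of 0.607 (0.217 to 1.38) and 0.738 (0.327 to 1.47). At Cbx8 there were 12, 19 and 116 fragments, with 0.900 (0.452 to 1.63) and 1.16 (0.672 to 1.89). Cbx8 stood above Cbx2 and Cbx7 with both antibodies, within the width of the intervals.

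Phc1 held 8 Santa Cruz, 15 Abcam and 75 input fragments, ratios of 0.928 (0.387 to 1.92) and 1.41 (0.753 to 2.48). The Abcam value was above that of 80.7% of all promoters with input fragments, and its p of 0.144 (one-sided exact binomial test, unadjusted) was the smallest of the 18 member values. In order, the Abcam ratios ran Phc1, Cbx8, Bmi1, Pcgf1, Pcgf2, Pcgf3, Cbx7, Cbx2 and Pcgf5, and all neighbours in this order overlap in their intervals.

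No member's interval lay wholly above 1 (3.24% of all promoters with Santa Cruz, 4.25% with Abcam) or wholly below 1 (3.47% and 3.28%). Across the 9 genes, 0 passed an adjusted p of 0.05 with Santa Cruz, where 142 of 22359 promoters (0.635%) did, and 0 passed with Abcam, where 243 (1.09%) did (one-sided exact binomial test, Benjamini-Hochberg adjustment over all promoters). At an unadjusted p under 0.05 the members again numbered 0 with each antibody, against 4.99% and 6.21% of all promoters. No member exceeded a ratio of 1 with Santa Cruz (40.8% of all promoters did) and 3 did with Abcam (44.7% of all promoters). The member median was 0.766 with Santa Cruz and 0.758 with Abcam, beside 0.897 and 0.941 over all promoters. Summed over the 9 windows there were 74 Santa Cruz, 105 Abcam and 841 input fragments, ratios of 0.766 (0.595 to 0.972) and 0.881 (0.712 to 1.08). Whether these intervals include 1 depended on the window, the start and, with Santa Cruz, on replicate 1, without which the ratio was 0.798 (0.615 to 1.02). The same sum over all promoters gave 0.938 and 0.987.

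Depth limits what these zeros can show. To pass the threshold, a member would have needed 20 to 31 Santa Cruz or 22 to 36 Abcam fragments, which is a ratio between 2.16 (Pcgf1) and 2.81 (Bmi1) for the first antibody and between 2.03 (Pcgf1) and 2.58 (Pcgf5) for the second. A smaller observed ratio could not pass at this depth. These are observed ratios, so a true enrichment near them could pass or be missed through counting error. The highest upper bounds were 2.15 (Bmi1, Santa Cruz) and 2.48 (Phc1, Abcam). For scale, Ddx4, a germ-cell RNA helicase gene, reached ratios of 9.24 (5.53 to 15.5) and 10.4 (6.48 to 16.8).

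**Figure D2:**
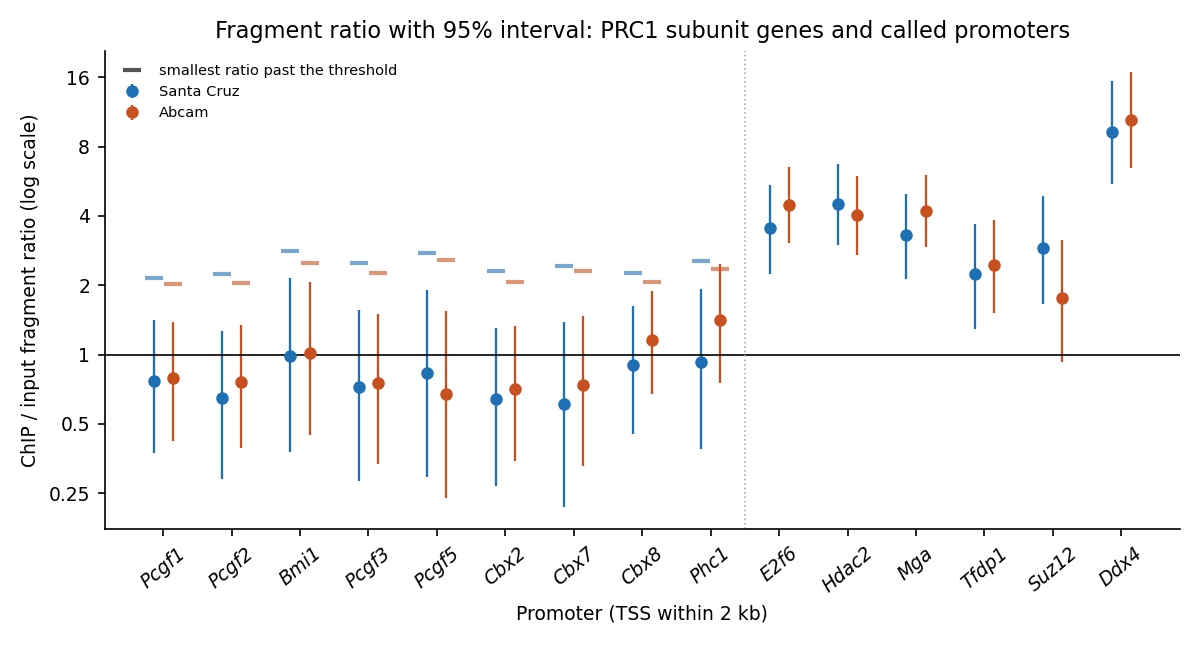
ChIP to input fragment ratio within 2 kb of the TSS (log axis) with its exact 95% interval, for each antibody with replicates joined. Left of the dotted line are the 9 PRC1 subunit genes with dashes at the smallest ratio that would pass the threshold (2.03 to 2.81), and every point there lies below its dash. Right of it are promoters that passed with at least 1 antibody, up to 10.4 at Ddx4.

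The 2 antibodies were also set against each other without the input. The Abcam to Santa Cruz ratio ran from 0.811 (0.217 to 3.03) at Pcgf5 to 1.52 (0.605 to 4.14) at Phc1. No member passed for a difference between the antibodies (adjusted p = 1 for all 9, two-sided exact binomial test), and 2 of 22359 promoters (0.00894%) did. At an unadjusted p under 0.05 the members numbered 0 as well, against 3.57% of all promoters. A 2-fold higher Abcam level lay within the interval of each of the 9 genes.

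Input itself was high at some of these promoters. The median promoter held 69 input fragments, whereas Pcgf1, Pcgf2, Cbx8 and Cbx2 held 125, 121, 116 and 109, more than 98.1%, 97.3%, 95.7% and 92.3% of promoters. Pcgf5 (63) and Bmi1 (62) lay just under the median. The part of this unevenness in the ratios was not tested.

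The windows were also divided by distance from the TSS. Within 500 bp of the 9 starts there were 20 Santa Cruz, 26 Abcam and 278 input fragments, ratios of 0.626 (0.376 to 0.986) and 0.660 (0.424 to 0.988), beside 0.903 and 0.998 over all promoters. Upstream of that (500 bp to 2 kb) the ratios were 1.05 (0.695 to 1.54) and 1.02 (0.701 to 1.46). Downstream they were 0.663 (0.418 to 1) and 0.963 (0.683 to 1.33). The intervals of the 3 stretches overlap with each antibody, and the whole stretch within 1 kb held Santa Cruz at 0.899 (0.658 to 1.20) and Abcam fragments at 0.860 (0.645 to 1.13). Phc1 held no Santa Cruz fragment and 34 input fragments within 500 bp of its start, and the upper bound of that ratio was 0.997. Its 4 Abcam fragments there gave 0.830 (0.214 to 2.33), beside 1.60 (0.474 to 4.34) upstream and 2.23 (0.728 to 5.80) downstream, and all 3 intervals include 1.

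Among the 54 values for the central, upstream and downstream stretch of each member window, 1 interval lay above 1 (Abcam, 1 of 27, where 2.72% of all such stretches did) and 1 below (Santa Cruz, 1 of 27, where 0.976% did). The other counts were 0 above with Santa Cruz (2.12% of all stretches) and 0 below with Abcam (1.20%). With 1 value each, nothing is read from these counts. The first was the stretch from 2 kb to 500 bp upstream of Pcgf1, with 8 Abcam and 19 input fragments, a ratio of 2.97 (1.13 to 7.11). Santa Cruz held 4 fragments there, a ratio of 1.83 (0.453 to 5.51). The second was the Santa Cruz count of 0 around the Phc1 start. Both were chosen after their values were seen.

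**Figure D3:**
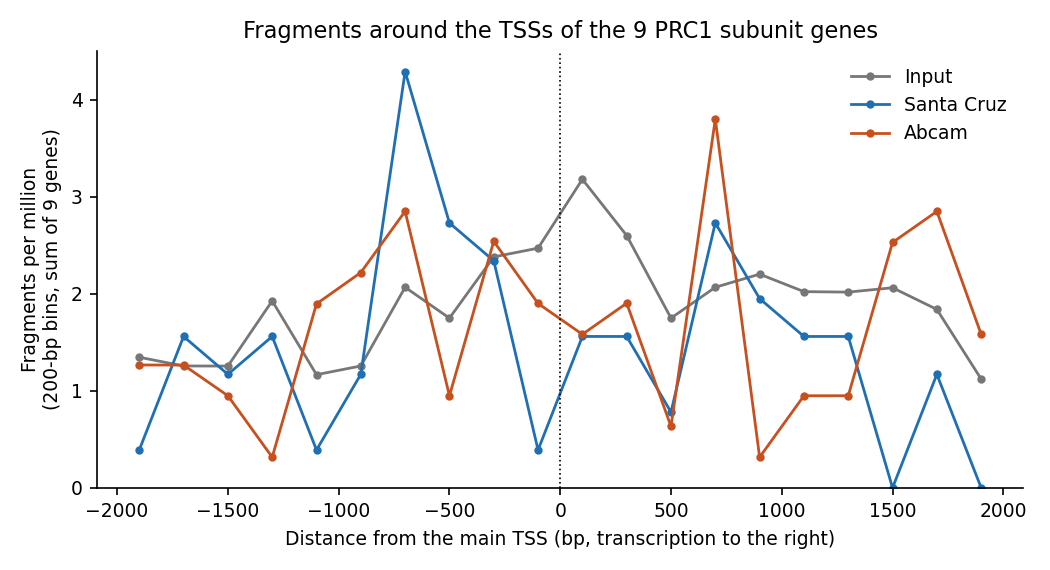
Fragments per 1000000 fragments of each library, summed over the 9 genes in 200-bp bins (y axis), against distance from the main TSS (x axis). The input is highest in the bin after the TSS, and both antibodies lie below it on each side of the TSS within 200 bp, where single bins rest on a few fragments each.

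Summed over the 9 genes, the rest of the gene bodies also lay below input. From 2 kb after the TSS to the gene end, the 9 genes together held 338 Santa Cruz, 432 Abcam and 3313 input fragments, ratios of 0.888 (0.791 to 0.993) and 0.920 (0.830 to 1.02). With Abcam, 1 of 9 bodies had an interval below 1 (13.5% of all gene bodies did), that of Pcgf2 at 0.620 (0.391 to 0.943), where Santa Cruz gave 0.669 (0.408 to 1.04). With Santa Cruz it was again 1 of 9 (11.9% of all gene bodies), that of Cbx7 at 0.804 (0.643 to 0.995), where Abcam gave 0.884 (0.728 to 1.06). These shares are near those of all gene bodies. No member body had an interval above 1, where 5.98% (Santa Cruz) and 6.77% (Abcam) of all gene bodies did. The body of Phc1 was at 1.12 (0.804 to 1.52) and 1.02 (0.751 to 1.37). Pcgf1 is so short that its remaining body held 5 input fragments, too few to read.

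Most members have several starts, and the choice of start mattered for Phc1 and Pcgf5. The 9 genes have 36 annotated starts between them, and none passed with either antibody, against 0.527% (Santa Cruz) and 0.975% (Abcam) of all 45961 starts. Santa Cruz ratios at the member starts lay between 0.382 and 1.32, and Abcam ratios between 0.512 and 1.41. The main Phc1 start, shared by 2 of 13 transcripts, had the highest Abcam value. The RefSeq start of Phc1, 3212 bp upstream, had 10 Santa Cruz, 9 Abcam and 115 input fragments, ratios of 0.757 (0.353 to 1.44) and 0.552 (0.246 to 1.09).

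RefSeq starts were placed by an exact match of their promoter sequence to NCBIM37, which was possible for 7 of the 9 members. For Pcgf5 a RefSeq start 30738 bp upstream of the main one, with no start in the annotation used, held 16 Santa Cruz, 17 Abcam and 90 input fragments. The ratios of 1.55 (0.848 to 2.65) and 1.33 (0.744 to 2.25) were above those at its main start, and the unadjusted p was 0.0774 and 0.171 (one-sided exact binomial test). The RefSeq start of Cbx7, 38473 bp downstream, gave 0.567 (0.203 to 1.28) and 0.920 (0.459 to 1.69). No member passed the threshold at a RefSeq start.

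The promoter sequences of 4 members are shown because they hold, directly upstream of the start, letters that were searched for, an E-box (CACGTG, the letters bound by Max and Mga of the Pcgf6 complex) or the string CGNGGGCG. That of Mga, which passed the threshold with both antibodies, is shown beside them. Each is the 250 bases before the main TSS on the strand of the gene (NCBIM37), with the matches in capitals.
Bmi1 (chr2:18598395-18598644, plus strand): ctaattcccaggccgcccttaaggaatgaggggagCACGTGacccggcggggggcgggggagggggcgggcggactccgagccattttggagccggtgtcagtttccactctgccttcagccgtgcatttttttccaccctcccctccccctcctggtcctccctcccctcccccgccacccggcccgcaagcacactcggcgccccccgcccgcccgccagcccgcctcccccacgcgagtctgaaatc
Cbx8 (chr11:118902284-118902533, minus strand): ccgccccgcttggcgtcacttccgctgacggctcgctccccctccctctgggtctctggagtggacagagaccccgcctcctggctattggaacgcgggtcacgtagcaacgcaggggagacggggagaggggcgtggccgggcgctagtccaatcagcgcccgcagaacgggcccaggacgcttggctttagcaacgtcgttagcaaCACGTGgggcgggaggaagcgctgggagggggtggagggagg
Pcgf1 (chr6:83028130-83028379, plus strand): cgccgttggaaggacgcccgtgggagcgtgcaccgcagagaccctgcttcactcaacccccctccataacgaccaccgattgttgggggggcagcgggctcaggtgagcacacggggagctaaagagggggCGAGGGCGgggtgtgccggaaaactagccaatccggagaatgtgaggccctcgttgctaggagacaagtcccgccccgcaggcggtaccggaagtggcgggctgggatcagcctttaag
Pcgf2 (chr11:97561812-97562061, minus strand): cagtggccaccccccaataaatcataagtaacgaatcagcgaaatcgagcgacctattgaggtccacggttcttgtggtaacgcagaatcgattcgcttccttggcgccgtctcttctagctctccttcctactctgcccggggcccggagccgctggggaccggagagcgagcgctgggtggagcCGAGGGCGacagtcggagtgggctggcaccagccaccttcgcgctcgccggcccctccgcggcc
Mga (chr2:119722714-119722963, plus strand): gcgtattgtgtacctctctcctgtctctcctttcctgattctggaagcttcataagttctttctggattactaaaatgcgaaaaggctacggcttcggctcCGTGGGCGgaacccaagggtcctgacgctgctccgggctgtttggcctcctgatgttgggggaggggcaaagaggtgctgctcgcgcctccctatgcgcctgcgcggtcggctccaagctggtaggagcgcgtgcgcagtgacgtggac

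The E-box lies 215 bp before the start of Bmi1 and 42 bp before that of Cbx8, and these genes had Santa Cruz ratios of 0.982 and 0.900. The string CGNGGGCG lies 119 bp before the Pcgf1 start and 64 bp before the Pcgf2 start, genes with ratios of 0.766 and 0.647. Mga carries the same string within its 250 bases and had a ratio of 3.30 (2.14 to 4.98). The string was thus present in a promoter that passed the threshold and in 2 that did not. E2f6 and Hdac2, which also passed with both antibodies, held none of the searched strings in their 250 bases.

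Over 1 kb either side of the TSS and on both strands, the E-box was found in 4 of 9 members (27.6% of all promoters) and CGNGGGCG in 6 of 9 (30.9%). The E2F site GGCGGGAA and the T-box site AGGTGTGA were each found in 1 member, Cbx2 in both cases (9.40% and 7.94% of all promoters). The members were rich in GC, with a median of 59.0% against 51.1% over all promoters and a CpG observed to expected ratio of 0.630 against 0.465. Bmi1 was highest (70.2% GC, 0.988) and Phc1 lowest (41.7%, 0.317). Phc1, Pcgf5 (44.9%, 0.388) and Cbx7 (CpG ratio 0.394) had the 3 lowest CpG ratios, and for these genes RefSeq starts with more CpG lie elsewhere. Over 300 bases (250 before and 50 after the start), the CpG ratio was 0.282 at the main and 0.534 at the RefSeq start of Phc1. It was 0.420 and 0.992 for Cbx7, and 0.286 and, at the upstream RefSeq start, 0.864 for Pcgf5.

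Peaks were called genome-wide with a Poisson test in 600-bp windows at a p cutoff of 1e-05. The scheme was modelled on MACS, with the local rate taken from the genome, 5 kb and 10 kb of the input but not 1 kb. Peaks numbered 596 with Santa Cruz and 907 with Abcam. None lay within 10 kb of the main TSS of a member, where 1.92% (Santa Cruz) and 3.23% (Abcam) of all promoters had one. The nearest to Pcgf1 was an Abcam peak at 64071 bp. For the other members except Bmi1, the nearest peak was over 100 kb away with each antibody, from 168600 bp (Pcgf3, Abcam) to 3946844 bp (Pcgf5, Abcam).

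Bmi1 was the exception, with a peak of each antibody in the same place behind the gene. With each antibody it was the 1 member of 9 with a peak within 50000 bp of its main TSS. Of all promoters, 4.89% (Santa Cruz) and 7.59% (Abcam) had a peak that near. Whether the members differ from these shares was not tested. The Santa Cruz peak (chr2:18610451-18611050) held 9 fragments in its best window where 1.27 were expected from the input (p = 7.56e-06, exact Poisson test), and the Abcam peak (chr2:18610201-18610900) held 11 against 1.56 (p = 8.27e-07). They start 11806 and 11556 bp after the TSS. The stretch they share begins 2195 bp past the annotated end of Bmi1. It ends 4759 bp before the next protein-coding start, that of Gm13334. These distances alone do not show whether another gene spans it. Within 1 kb of its middle there were 14 Santa Cruz, 18 Abcam and 48 input fragments, ratios of 2.54 (1.29 to 4.68) and 2.65 (1.45 to 4.63), intervals computed at a place chosen by these fragments. With the local rate also taken from 1 kb of the input, neither peak was called.

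The middle 300 bases of the shared stretch are shown because no other peak lay this close to a member. CpG pairs are in capitals.
Bmi1 downstream stretch (chr2:18610526-18610825, plus strand): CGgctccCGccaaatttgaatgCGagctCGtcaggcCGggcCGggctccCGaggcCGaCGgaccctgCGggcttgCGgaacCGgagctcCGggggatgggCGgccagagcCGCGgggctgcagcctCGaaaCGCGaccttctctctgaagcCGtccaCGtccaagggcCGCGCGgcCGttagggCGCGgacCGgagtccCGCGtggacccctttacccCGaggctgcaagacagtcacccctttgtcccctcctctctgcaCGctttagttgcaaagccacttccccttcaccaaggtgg
It holds 32 CpG pairs at 68.3% GC, a CpG observed to expected ratio of 0.919. None of the 4 searched strings was found in the shared 450 bases.

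**Figure D4:**
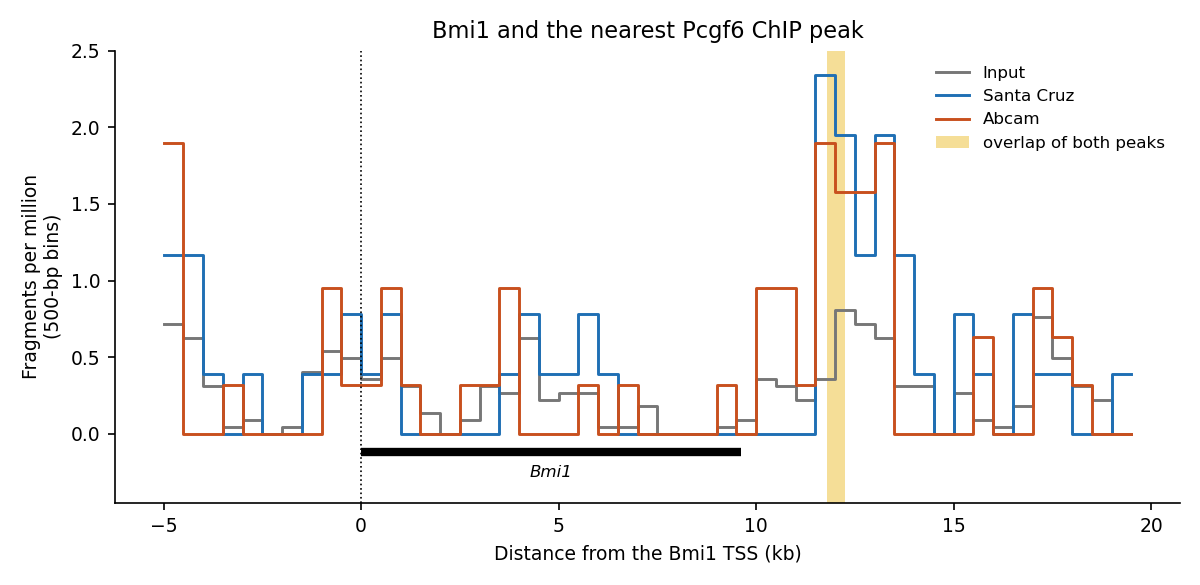
Fragments per 1000000 fragments of each library in 500-bp bins (y axis) from 5 kb before to 20 kb after the Bmi1 TSS (x axis), with the gene as a black bar and the stretch shared by both peaks shaded. Both antibodies stand above the input around the shaded stretch, where the input is also higher than over most of the gene, and near the input level at the TSS.

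Among the other genes of the Polycomb system, the lists differed in what passed. Of 17 further PRC1 genes, 0 passed with either antibody, and 0 (Santa Cruz) and 1 (Abcam) had an unadjusted p under 0.05 (exact binomial test). Their medians were 0.846 and 0.836. The highest of them was Scml2, at 2.05 (0.501 to 6.28) and 3.74 (1.47 to 8.86, adjusted p = 0.181, exact binomial test) on 17 input fragments, and the lowest were Skp1a with Santa Cruz (0.448) and Scmh1 with Abcam (0.441, 1 fragment). The 4 genes of the shared core (Ring1, Rnf2, Rybp and Yaf2) also gave 0 calls with each antibody, and 0 at an unadjusted p under 0.05. Over all promoters, 0.635% (Santa Cruz) and 1.09% (Abcam) passed, and 4.99% and 6.21% had an unadjusted p that low.

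In contrast, of 11 genes of the Pcgf6 complex itself, 3 passed with Santa Cruz (E2f6 at 3.53, Hdac2 at 4.52 and Mga at 3.30) and 4 with Abcam (the same genes at 4.48, 4.05 and 4.22, and Tfdp1 at 2.44). Of 11 PRC2 genes, Suz12 passed with Santa Cruz at 2.90 (1.66 to 4.88, adjusted p = 0.0265) and 0 passed with Abcam, where 3 had an unadjusted p under 0.05 (exact binomial test). The shares over all promoters were 0.635% (Santa Cruz) and 1.09% (Abcam) past the threshold, and 4.99% and 6.21% at that unadjusted p. E2f6 binds E2F sites, Mga binds with Max, and Suz12 is a core PRC2 subunit. The lists were not tested against each other.

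**Figure D5:**
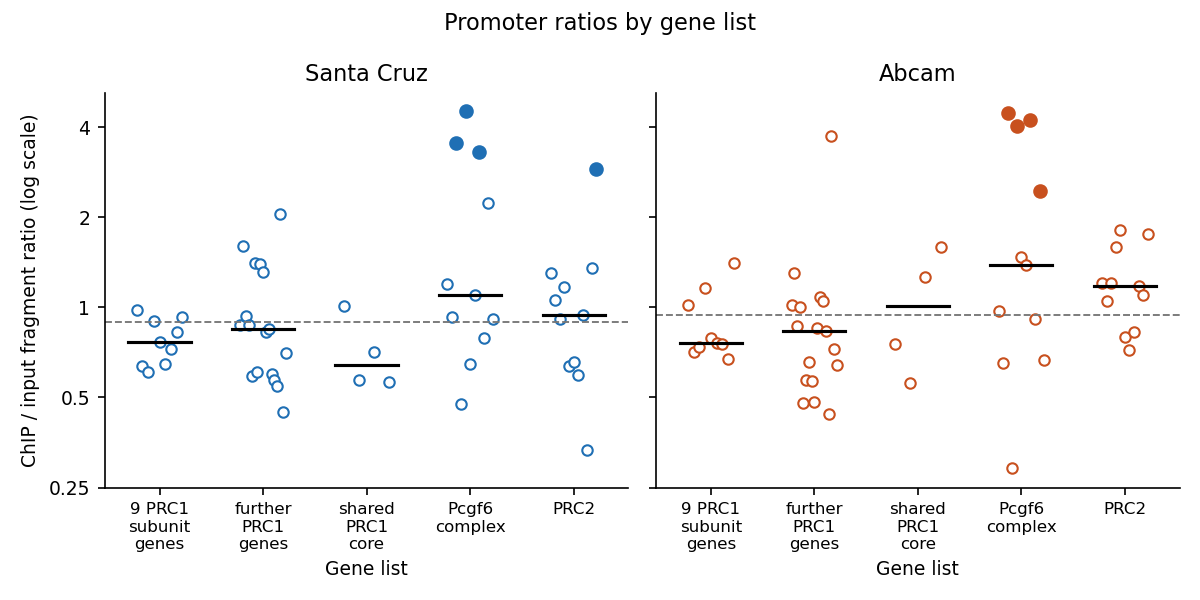
ChIP to input fragment ratio of each promoter (log axis) by gene list, with Santa Cruz at the left and Abcam at the right. Filled points passed an adjusted p of 0.05, short lines are list medians and the dashed line is the median over all promoters. The 9 PRC1 subunit genes lie between 0.607 and 1.41 with no filled point, and the filled points are in the Pcgf6 complex list (3 and 4) and in the PRC2 list (1, Santa Cruz). Of all promoters, 0.635% (Santa Cruz) and 1.09% (Abcam) passed.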

How the data were processed

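The authors deposited, for each of the 5 libraries, a coverage signal, in which each position holds the number of extended reads (300 bp) over it, unscaled and not set against the input. The submitters' processing notes name Bowtie (listed as version 0.1.2.7) and mm9, and its settings are not given in the sources used here. Fragments were recovered from the steps of the depth, 1 was kept per position and placed at its middle, and replicates of an antibody, which held the same fragments, were joined. Ratios were scaled by library totals, intervals are exact Clopper-Pearson 95% intervals, and tests are exact binomial tests with Benjamini-Hochberg adjustment over all 22359 protein-coding promoters (GENCODE on NCBIM37, threshold 0.05). Fragment totals, with 1 kept per position and the replicates of an antibody joined, run from 2563094 to 22298811. Intervals cover counting error only. Peak windows of 600 bp moved in steps of 50 bp against the highest input rate over the genome, 5 kb or 10 kb. RefSeq promoter sequences came from a table for GRCm38.p6 and all printed sequences from NCBIM37. The 9 genes and all other lists were chosen with earlier results of these data known. All 9 were described, of the other lists only genes past the threshold and the highest and lowest further PRC1 gene. Fragment recovery and the promoter count tests were tried on simulated data, and the other steps, such as peak calling, were not. Alternatives were fragments counted as deposited, promoter windows of 1, 3 and 10 kb, scaling by a genome-wide median (10 kb bins), leaving out a replicate, other starts, an input minimum of 20 fragments, other peak settings and, chosen after seeing the data, RefSeq starts. Counting ran in Python 3.11.15 with numba 0.67.0, tests in scipy 1.17.1, and figures in matplotlib 3.10.9.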

Additional observations from a re-analysis of the deposited data

How the results depend on the processing

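No member passed the threshold with either antibody under any alternative run, and the smallest adjusted p of a member was 0.960 with Santa Cruz and 0.455 with Abcam (exact binomial test, Phc1 with all fragments as deposited). For the summed ratio the lowest and highest values were 0.732 and 0.899 (Santa Cruz) and 0.786 and 0.906 (Abcam), and with 1 replicate left out 0.732 and 0.798, and 0.896 and 0.906. The Santa Cruz interval lay below 1 as reported and included 1 within 1 kb (0.658 to 1.20), without replicate 1 (0.615 to 1.02) and at RefSeq starts (0.644 to 1.02). That of Abcam included 1 as reported and lay below it at the most upstream start (0.632 to 0.968) and within 10 kb (0.801 to 0.979). No paired analysis was possible because the replicates of each antibody hold the same fragments, so each antibody is 1 library. For the same reason, leaving out a replicate is not an independent check.

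Single ratios changed side of 1, none of them past the threshold, and those at other starts moved most, Phc1 with Abcam from 1.41 and Pcgf5 from 0.829 (Santa Cruz) and 0.672 (Abcam) to the values given here. Within 1 kb, Santa Cruz gave 1.55 (Pcgf5), 1.24 (Bmi1) and 1.28 (Cbx8), and Abcam gave 1.01 (Pcgf5) and 0.934 (Cbx8). Within 3 kb Bmi1 gave 1.05, and within 10 kb Pcgf5 gave 1.16 and Bmi1 1.28 (all Santa Cruz). At the RefSeq start Pcgf5 gave 1.55 and 1.33 and Phc1 with Abcam 0.552, and at the most upstream start Phc1 with Abcam gave 0.516. Phc1 with Santa Cruz was 1.04 without replicate 1 and 0.912 without replicate 2. The Abcam to Santa Cruz ratio was below 1 within 1 kb at Pcgf1 (0.901), Pcgf2 (0.973), Cbx2 (0.541) and Cbx8 (0.730), within 10 kb at Pcgf1 (0.976), Pcgf2 (0.966), Pcgf3 (0.759), Bmi1 (0.811) and Cbx7 (0.994), and with all fragments as deposited at Pcgf3 (0.881).

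The median depth ratio of Santa Cruz replicate 1 was 0.859 within 1 kb. At a peak cutoff of 1e-04, 1 member, Cbx8, had an Abcam peak within 10 kb, 5833 bp downstream, where 5.33% of all promoters had one. No member had a Santa Cruz peak that near at this cutoff (3.14% of all promoters). With all fragments as deposited, 1 further PRC1 gene passed with Abcam (Scml2, adjusted p = 0.0115, exact binomial test), under a count in which fragments of both replicates enter separately, and promoters past the threshold numbered 383 with Santa Cruz and 621 with Abcam, against 82 with Santa Cruz within 10 kb. In the 300 bases around the TSS, 2 members held the E-box (7.70% of all promoters) and 3 CGNGGGCG (13.7%). The E2F site was held by 0 members (2.80% of all promoters) and the T-box site by 0 (1.13%). Members held 6 to 19 ChIP fragments per antibody, which limits every ratio above. The causes of these changes were not tested.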
